A study of Mus musculus with 12 samples.

Results

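A set of 9 genes of mast cells, basophils and eosinophils was followed in mouse haematopoietic stem and progenitor cells: Cpa3, Ms4a2, Fcer1a, Mcpt8, Prss34, Hdc, Prg2, Epx and Il1rl1. They were taken by name from a table of 54532 gene IDs, in which each of the 9 names stands once. All 9 were among the 15003 genes that passed the filter on low counts. The libraries were bulk RNA-seq of Lin-cKit+ cells, which are marrow cells without lineage markers that carry the receptor Kit, sorted fresh and never cultured.

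The 4 groups held 3 libraries each. RH MET were cells of Dnmt3a fl-R878H/+ C57BL/6 mice, in which 1 allele of the DNA methyltransferase gene Dnmt3a can be switched to the R878H form, given metformin for 1 month. RH VEH were cells of the same genotype under vehicle for 1 month. WT MET and WT VEH were Dnmt3a+/+ cells under metformin and under vehicle for the same time. Both genotypes carried the Mx1-cre transgene, whose promoter responds to interferon and is not restricted to blood cells, so the controls carried it too. All cells came from a competition experiment with 2 animals in each treatment group. Which animal a library came from is not stated, and the p-values below therefore rest on library-to-library spread, part of which may be technical. How donor and competitor cells were told apart in the sort is not stated in these sources. The study asked what metformin does to mutant and wild-type progenitors. Whether it alters this branch of blood formation is the comparison followed here.

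Mast cells, basophils and eosinophils are the granulocytes of allergy and of the defence against worms and ticks. Their progenitors arise in the marrow among cells that carry Kit and use the transcription factors Gata2 and Gata1, with C/EBP factors in basophils and eosinophils. Mast cells and basophils are armed by IgE held on the high-affinity IgE receptor, whose alpha chain is made from Fcer1a and whose beta chain is made from Ms4a2. Their granules hold histamine, made by the enzyme that Hdc encodes, and proteases. Cpa3 encodes a carboxypeptidase of mast cells, and Mcpt8 and Prss34 encode serine proteases that mark mouse basophils. Eosinophil granules hold major basic protein, from Prg2, and eosinophil peroxidase, from Epx. Il1rl1 encodes ST2, the receptor for IL-33, which mast cells, basophils and group 2 innate lymphoid cells carry. Mast cells keep Kit for life, while mature basophils and eosinophils carry little of it.

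The genes lie on 7 chromosomes in the build mm10, each as a protein-coding gene on the coordinates of the deposited table. Cpa3 (ENSMUSG00000001865) spans chr3:20215620-20242181 and Ms4a2 (ENSMUSG00000024680) spans chr19:11615523-11623719, both on the minus strand. Fcer1a (ENSMUSG00000005339) spans chr1:173221284-173227214 on the minus strand and Il1rl1 (ENSMUSG00000026069) spans chr1:40429570-40465415 on the plus strand. Mcpt8 (ENSMUSG00000022157) spans chr14:56082166-56085273 on the minus strand, and Prss34 (ENSMUSG00000056399) spans chr17:25298394-25300161 on the plus strand. Hdc (ENSMUSG00000027360) spans chr2:126593667-126619299 on the minus strand and Prg2 (ENSMUSG00000027073) spans chr2:84980461-84983632 on the plus strand. Epx (ENSMUSG00000052234) spans chr11:87864000-87875536 on the minus strand.

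Windows of 300 bases around the start sites, 250 before the start and 50 from it, were taken from the RefSeq promoter table of build GRCm38.p6, which matched 8 of the 9 genes with 9 windows. They were searched on both strands for GATAA, the core letters bound by GATA factors, and for CANNTG, the E-box. GATAA stood in 6 of 9 windows, beside 25.4% of all 32851 windows in the table, and CANNTG stood in 8 of 9, beside 72.3% of all. No GATAA overlapped a CANNTG. These are matches of letters and not measured sites, and 5 of the windows are printed because they span 3 copies, 1 copy and no copy of GATAA. Capitals mark GATAA, or TTATC where it lies on the opposite strand, and all are written 5′ to 3′ on the strand of the gene.
Ms4a2, chr19:11623670-11623969, minus strand.
Ms4a2: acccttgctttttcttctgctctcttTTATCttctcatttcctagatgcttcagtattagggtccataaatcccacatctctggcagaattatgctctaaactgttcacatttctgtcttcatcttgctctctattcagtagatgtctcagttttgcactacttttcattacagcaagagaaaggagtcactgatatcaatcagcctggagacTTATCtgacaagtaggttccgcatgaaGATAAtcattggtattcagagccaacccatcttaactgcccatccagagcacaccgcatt
Cpa3, chr3:20242132-20242431, minus strand.
Cpa3: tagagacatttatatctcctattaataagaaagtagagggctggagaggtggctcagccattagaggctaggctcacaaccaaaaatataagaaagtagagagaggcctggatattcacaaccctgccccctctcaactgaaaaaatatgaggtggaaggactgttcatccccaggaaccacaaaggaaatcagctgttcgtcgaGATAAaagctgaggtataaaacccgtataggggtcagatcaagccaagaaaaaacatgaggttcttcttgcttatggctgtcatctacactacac
Prss34, chr17:25298144-25298443, plus strand.
Prss34: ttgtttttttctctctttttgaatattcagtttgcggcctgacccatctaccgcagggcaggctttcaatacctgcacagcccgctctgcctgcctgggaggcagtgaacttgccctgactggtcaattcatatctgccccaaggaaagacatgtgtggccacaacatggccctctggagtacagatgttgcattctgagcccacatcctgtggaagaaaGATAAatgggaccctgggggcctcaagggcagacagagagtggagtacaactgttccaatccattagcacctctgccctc
Fcer1a, chr1:173227180-173227479, minus strand.
Fcer1a: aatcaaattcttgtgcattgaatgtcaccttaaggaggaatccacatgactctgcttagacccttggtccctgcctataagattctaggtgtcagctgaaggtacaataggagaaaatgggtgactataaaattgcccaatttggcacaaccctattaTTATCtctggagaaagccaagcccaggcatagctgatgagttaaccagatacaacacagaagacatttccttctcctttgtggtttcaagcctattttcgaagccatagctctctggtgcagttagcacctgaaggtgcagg
Mcpt8, chr14:56085148-56085447, minus strand.
Mcpt8: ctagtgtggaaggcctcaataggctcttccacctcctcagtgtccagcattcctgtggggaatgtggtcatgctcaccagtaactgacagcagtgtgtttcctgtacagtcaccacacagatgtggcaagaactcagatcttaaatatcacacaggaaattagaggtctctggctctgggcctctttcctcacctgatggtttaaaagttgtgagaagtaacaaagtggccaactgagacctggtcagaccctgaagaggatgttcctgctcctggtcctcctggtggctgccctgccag
The first bases of the Ms4a2 matches lie at −224, −37 and −10 from the start site, that of Cpa3 at −45, that of Prss34 at −30 and that of Fcer1a at −92. The upstream window of Il1rl1 held 2 copies and its second window 1. The windows of Mcpt8, Hdc and Epx held none.

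Depth was 13359583 to 21938003 counts per library. A pair of libraries stood apart: RH VEH 2 and WT MET 2 had 40.8% and 33.3% of their counts on mitochondrial genome genes, against 1.57% to 4.33% in the other 10. The libraries also fall into 2 rounds that cross all 4 groups. Round 2 holds the 6 libraries found in the larger of the deposited tables only (RH MET 3, RH VEH 2 and 3, WT MET 2 and 3, WT VEH 3), among them both libraries of high mitochondrial share, and round 1 holds the 6 found in both tables. No label calls this split a batch. Library numbers are those of the columns. Levels are CPM, counts relative to the depth of the library, after TMM scaling, and counts were compared with edgeR's quasi-likelihood test in a model of group and round, a gene being called at a Benjamini-Hochberg adjusted p under 0.05 over all genes tested.

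The 9 genes together made up 0.0711% to 0.256% of all counts in a library, mitochondrial counts included. The lowest shares were those of RH VEH 2 and WT MET 2, where the mitochondrial share was high. The other libraries had 0.108% to 0.256%. Per kilobase of gene length, the basophil proteases led. Prss34 averaged 526 CPM per kilobase over 12 libraries, rank 90 of the 15003 genes tested, and Mcpt8 averaged 287, rank 169. Prg2 followed with 224, rank 210. Cpa3 averaged 59.6 CPM per kilobase (rank 893) and Fcer1a 39.7 (rank 1417). Epx, Ms4a2, Hdc and Il1rl1 lay between 15.3 and 8.75 CPM per kilobase, at ranks 3543, 3884, 4125 and 5303. The ranges of neighbours in this order overlapped over the 12 libraries in each case. Prg2 had 106 to 443 CPM per kilobase and Cpa3 24.6 to 118, so even these neighbours overlapped. Epx, Ms4a2, Hdc and Il1rl1 could not be put in order beyond their spread.

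The protease genes of mature mast cells were at or near 0, while other genes of the same list were not. The tryptase genes Tpsab1 and Tpsg1, the receptor gene Mrgprb2 and Tph1, which encodes the enzyme for serotonin synthesis, had 0 counts in all 12 libraries. A count of 0 allows up to 0.121 to 0.358 CPM in these libraries, at 3 counts per library and for counting error only. The tryptase gene Tpsb2 had 0 to 5 counts, the chymase genes Mcpt4, Mcpt1, Mcpt2 and Mcpt9 had at most 3, 2, 5 and 4 counts, and the chymase gene Cma1 had 0 to 21. Mature mast cell proteases were thus barely counted beside Cpa3 and Ms4a2, and in this the data do not show the full set that the name mast cell would call for. Of the 33 other mast cell and basophil genes, 14 had a median under 1 CPM. Cd200r3, which encodes an activating receptor of mouse mast cells and basophils, was measured at 7.71 to 23.4 CPM, Slc18a2, which encodes the transporter that loads histamine and serotonin into granules, at 17.6 to 45.7 CPM and the prostaglandin receptor gene Ptger3 at 11.8 to 27.4 CPM.

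Of the other eosinophil genes, those of receptors and granule proteins had lower median CPM than Prg2 and Epx. Siglecf, which encodes an eosinophil lectin, had 3.47 to 15 CPM, and Prg3, a paralog of Prg2, had 2.03 to 17.5 CPM. Gene lengths differ, and per kilobase the median of Prg3 was 5.66 CPM, against 11.6 for Epx and 209 for Prg2. Ccr3, which encodes the eotaxin receptor, had 0.108 to 6.3 CPM, and Il5ra, which encodes the IL-5 receptor alpha chain, had 0.236 to 0.984 CPM. Other genes of that list, which more cell types make, stood higher, S100a10 at 30.9 to 69.8 CPM among them. Kit, the marker of the sort, stood at 118 to 199.9 CPM, Gata2 at 141 to 330.5 CPM and Gata1 at 193 to 355 CPM. Of the growth factors of these lineages, Il3 had 0 counts in all libraries, Il5 at most 7 and Il33 at most 4.

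**Figure D1:**
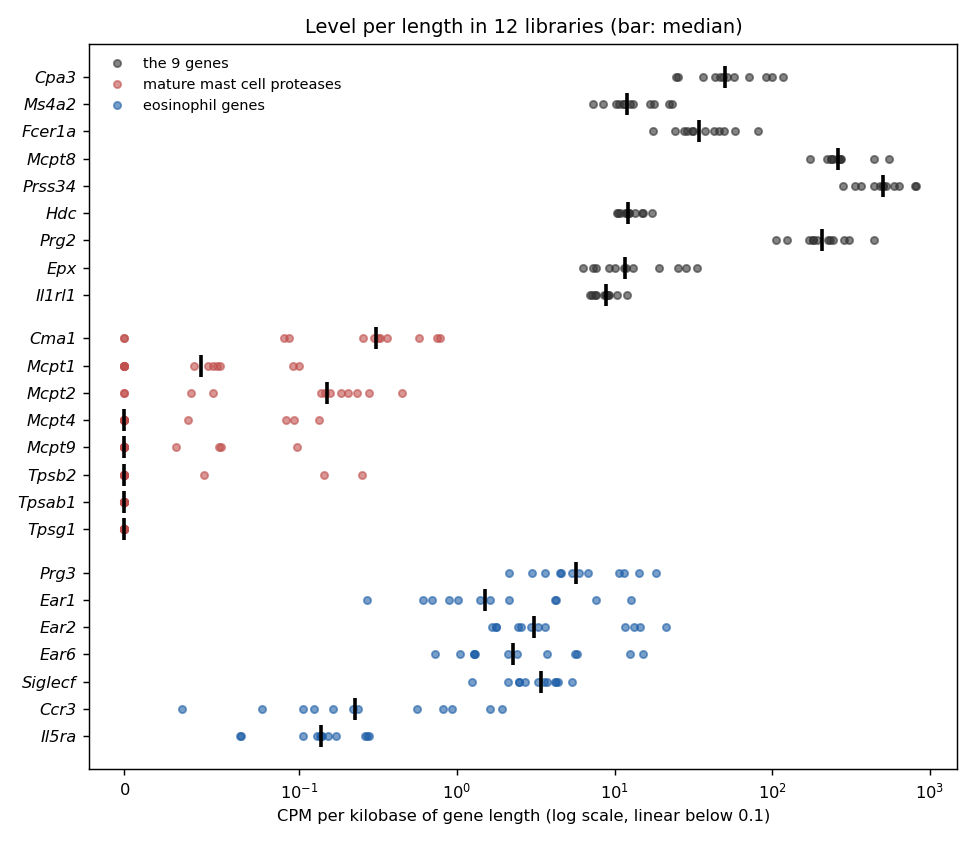
Level per kilobase of gene length (CPM per kilobase, log scale that is linear below 0.1) of each gene in each of 12 libraries, with a bar at the median. The 9 genes (dark) have medians between 8.82 and 505, the mature mast cell proteases (red) medians of at most 0.306, and the 7 other eosinophil genes drawn (blue), which are those of granule proteins and receptors, medians of 0.138 to 5.66.

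Between the study's groups, none of the 9 genes passed the test in any comparison. For Cpa3, Ms4a2, Fcer1a, Prg2 and Epx, the highest library of each group belonged to round 2.

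Of the IgE receptor genes, Fcer1a was measured at 27.7, 30.9 and 58.1 CPM in RH MET 1, 2 and 3, 42.4, 31.2 and 45.9 CPM in RH VEH 1, 2 and 3, 37.6, 17.5 and 81.3 CPM in WT MET 1, 2 and 3 and 28.6, 24.1 and 49.5 CPM in WT VEH 1, 2 and 3. The highest value, in WT MET 3, and the lowest, in WT MET 2, stood in the same group, and the 4 groups overlapped. Ms4a2 was measured at 32, 36.8 and 64.8 CPM in RH MET, 32.3, 20.6 and 49.9 CPM in RH VEH, 35.4, 28.8 and 62.7 CPM in WT MET and 23.7, 29.8 and 47 CPM in WT VEH, giving libraries in the order of their numbers. Library 3 was the highest of each group. The ratio of Ms4a2 to Fcer1a counts ran from 0.659 in RH VEH 2 to 1.64 in WT MET 2, with a median of 1.02 over 12 libraries.

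Of the granule proteases, Prss34 was measured at 542, 616 and 981 CPM in RH MET, 780.0, 408 and 640.1 CPM in RH VEH, 592, 344 and 996 CPM in WT MET and 613, 446 and 719 CPM in WT VEH. WT MET 3 and RH MET 3 were the highest, and the 2 libraries of high mitochondrial share were the lowest of the 12. Mcpt8 was measured at 259.6, 237 and 547 CPM in RH MET, 273, 268 and 245 CPM in RH VEH, 263, 222 and 442 CPM in WT MET and 237, 174 and 269 CPM in WT VEH. RH MET 3 and WT MET 3 were again the highest, while the RH VEH libraries lay close together. Cpa3 was measured at 73.8, 71.3 and 179 CPM in RH MET, 66.1, 37.3 and 139 CPM in RH VEH, 87.5, 38.4 and 151 CPM in WT MET and 55.5, 78.2 and 107 CPM in WT VEH. The 4 values above 100 belong to the 4 libraries of round 2 with an ordinary mitochondrial share, and the 2 values below 40 to the 2 libraries with a high one.

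Hdc, the histamine enzyme gene, varied least among the granule and mediator genes. It was measured at 76.9, 66.7 and 110.0 CPM in RH MET, 76.8, 96.3 and 74.3 CPM in RH VEH, 68.8, 86 and 78.3 CPM in WT MET and 67.5, 78.4 and 95.1 CPM in WT VEH. All 4 groups overlapped, and the highest library was 1.65 times the lowest.

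The eosinophil granule genes spread widely. Prg2 was measured at 89.1, 162 and 204 CPM in RH MET, 188, 194 and 258 CPM in RH VEH, 143, 152 and 371 CPM in WT MET and 153, 103 and 239 CPM in WT VEH. WT MET 3 stood highest and RH MET 1 lowest. Epx was measured at 19.8, 32.5 and 52.7 CPM in RH MET, 35.9, 17.3 and 91.3 CPM in RH VEH, 27.4, 20.8 and 78 CPM in WT MET and 31.3, 25.3 and 68.7 CPM in WT VEH. Its highest library, RH VEH 3, was 5.27 times its lowest, RH VEH 2, and both belong to the same group.

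Il1rl1, the IL-33 receptor gene, was measured at 51.5, 49.6 and 63.2 CPM in RH MET, 61.4, 62.4 and 71.9 CPM in RH VEH, 52.3, 83.2 and 58.7 CPM in WT MET and 48.2, 61 and 60.6 CPM in WT VEH. Its 3 RH VEH values lay just above the highest of the WT VEH values, and the other pairs of groups overlapped. The highest library was WT MET 2, 1 of the 2 with a high mitochondrial share, in which Fcer1a and Prss34 had their lowest values.

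**Figure D2:**
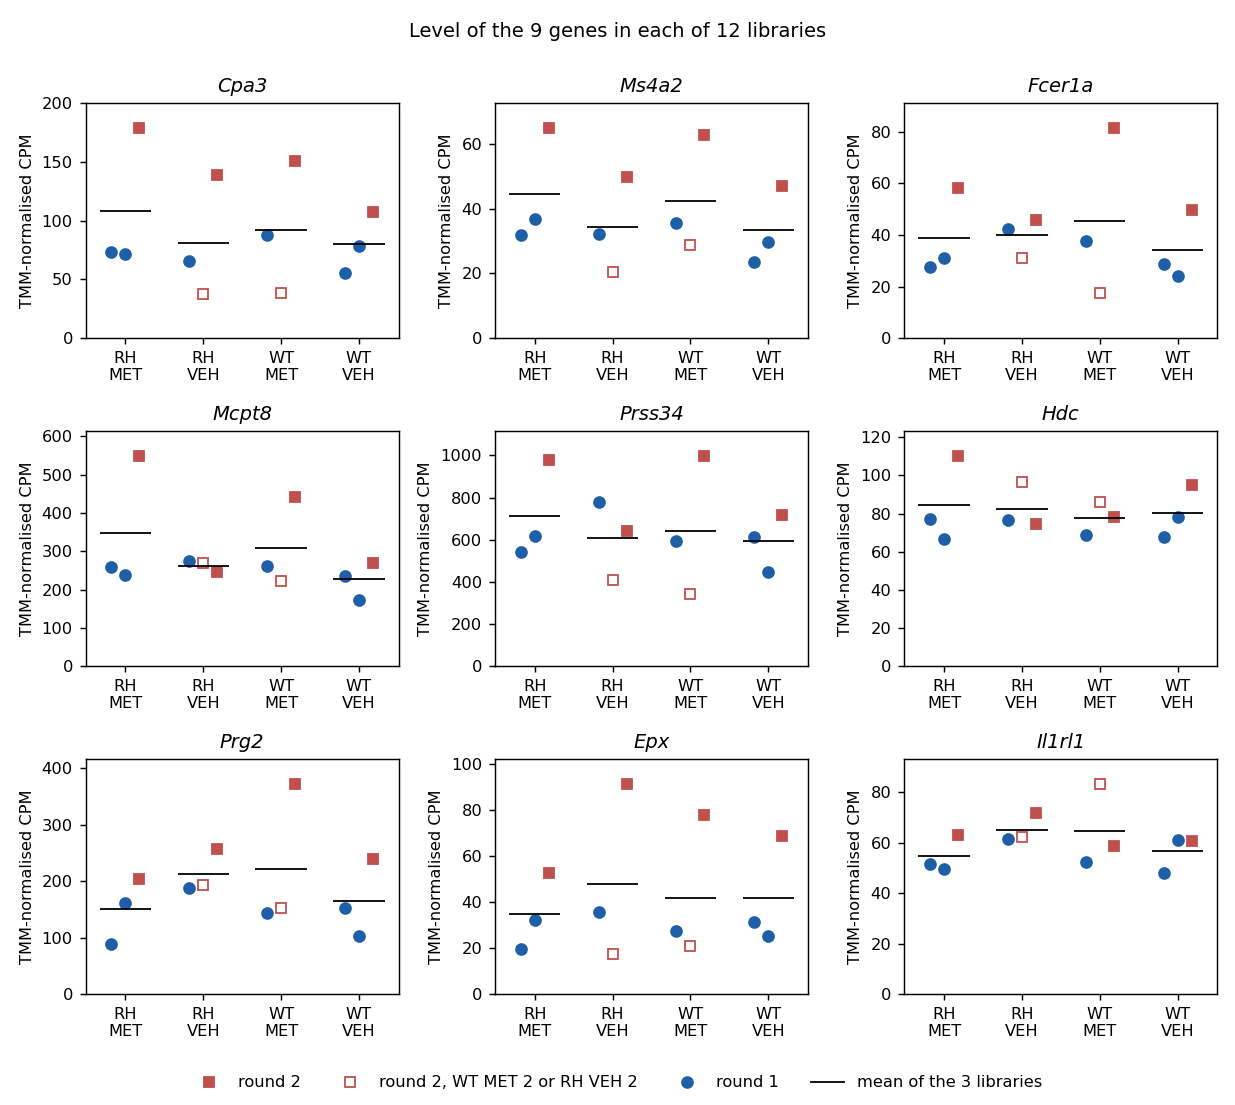
TMM-normalised CPM of each gene (panels) in the 3 libraries of RH MET, RH VEH, WT MET and WT VEH, with a line at the group mean. Squares are round 2, open squares are WT MET 2 and RH VEH 2, and circles are round 1; filled squares are the highest of their group in all 4 groups for Cpa3, Ms4a2, Fcer1a, Prg2 and Epx.

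Mutant and wild-type cells under vehicle showed no called difference in these genes: 6 had positive and 3 negative log2 fold changes, with a median of 0.01 and a range of −0.17 to 0.21, beside a median near 0 over all genes tested. None was called, where 0% of the 15003 genes were called, and the lowest adjusted p among them was 0.977 (edgeR quasi-likelihood, Benjamini-Hochberg). At an unadjusted p under 0.05 there were 304 genes, none of them among the 9. Prg2 averaged 213 ± 38.4 CPM in RH VEH and 165 ± 68.4 CPM in WT VEH (SD, n = 3 each), with a log2 fold change of 0.21 ± 0.334 (SE). Cpa3 averaged 80.8 ± 52.4 CPM in RH VEH and 80.3 ± 26 CPM in WT VEH, with a log2 fold change of −0.17 ± 0.578. Il1rl1 averaged 65.2 ± 5.82 CPM in RH VEH and 56.6 ± 7.25 CPM in WT VEH, with a log2 fold change of 0.12 ± 0.161 and an adjusted p of 0.977 (edgeR). It was the only 1 of the 9 genes whose groups did not overlap, and 5.95% of all genes tested did not overlap in either direction in this comparison.

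Between RH MET and WT MET, 6 of the 9 genes had positive and 3 had negative log2 fold changes, with a median of 0.19 and a range of −0.31 to 0.31, and none was called, where 0.00667% of all genes were called. The lowest adjusted p was 0.738 (edgeR). Mcpt8 averaged 348 ± 173 CPM in RH MET and 309 ± 117 CPM in WT MET (SD, n = 3 each), with a log2 fold change of 0.26 ± 0.278 (SE). Hdc averaged 84.5 ± 22.6 CPM in RH MET and 77.7 ± 8.62 CPM in WT MET, with a log2 fold change of 0.22 ± 0.149. Prg2 averaged 152 ± 58.3 CPM in RH MET and 222 ± 129 CPM in WT MET, with a log2 fold change of −0.31 ± 0.341. The groups overlapped for each of the 9 genes, beside 16.9% of all genes whose groups did not.

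In RH cells, the log2 fold changes of metformin against vehicle were positive for 6 and negative for 3 of the 9 genes, with a median of 0.13 and a range of −0.31 to 0.53. None was called, where 0% of all genes were called, and the lowest adjusted p was 0.932 (edgeR). Cpa3 averaged 108 ± 61.3 CPM in RH MET and 80.8 ± 52.4 CPM in RH VEH (SD, n = 3 each), with a log2 fold change of 0.53 ± 0.571 (SE). Ms4a2 averaged 44.6 ± 17.7 CPM in RH MET and 34.2 ± 14.8 CPM in RH VEH, with a log2 fold change of 0.49 ± 0.342. Mcpt8 averaged 348 ± 173 CPM in RH MET and 262 ± 15.3 CPM in RH VEH, with a log2 fold change of 0.47 ± 0.277. RH MET 3 stood apart for Mcpt8, and RH MET 1 and 2 lay within or below the RH VEH values; without RH MET 3 the log2 fold change of Mcpt8 was 0.06. The groups overlapped for each of the 9 genes, beside 6.92% of all genes whose groups did not.

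In WT cells, the log2 fold changes of metformin against vehicle were positive for 7 and negative for 2 of the 9 genes, with a median of 0.09 and a range of −0.22 to 0.30. None was called, where 0% of all genes were called, and the lowest adjusted p was 0.878 (edgeR). Mcpt8 averaged 309 ± 117 CPM in WT MET and 226 ± 48.3 CPM in WT VEH (SD, n = 3 each), with a log2 fold change of 0.30 ± 0.283 (SE). Fcer1a averaged 45.5 ± 32.6 CPM in WT MET and 34.1 ± 13.6 CPM in WT VEH, with a log2 fold change of 0.29 ± 0.469. The groups overlapped for each of the 9 genes, beside 9.38% of all genes whose groups did not. The 4 comparisons share groups pairwise and are not independent of each other.

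**Figure D3:**
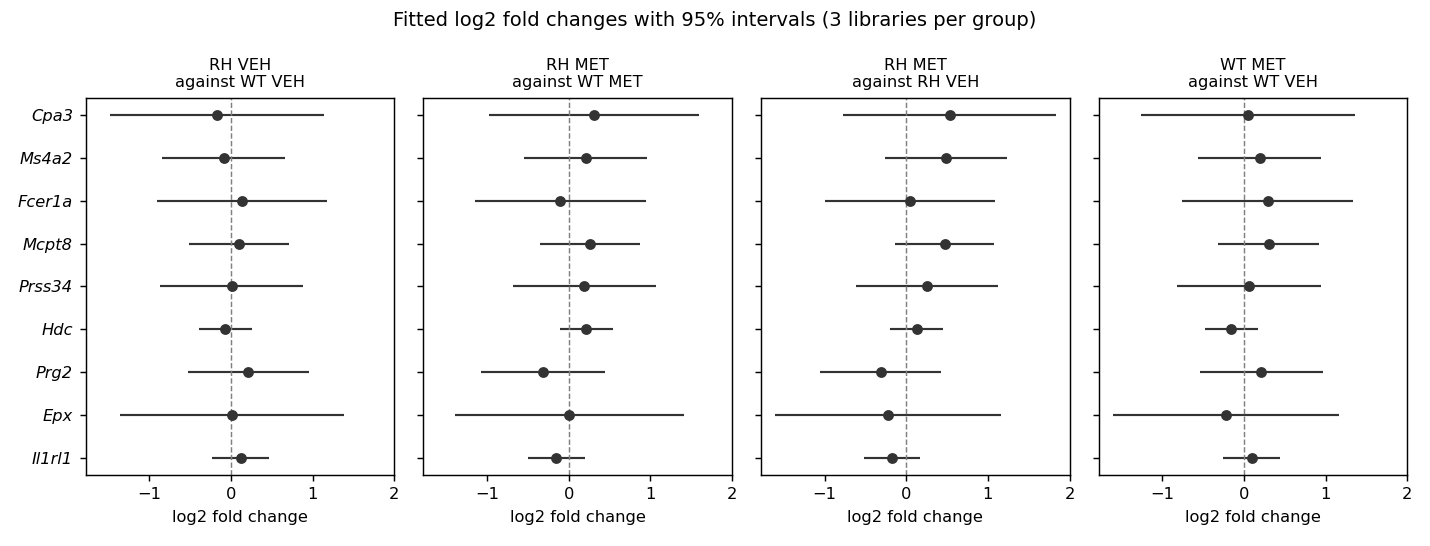
Log2 fold change (x axis) of each gene in the 4 comparisons between groups of 3 libraries, with 95% intervals from the fit. The estimates lie between −0.31 and 0.53, and all 36 intervals include 0.

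The difference between the metformin effects in RH and WT cells, and the effects averaged over the other factor, had no called gene among the 9 either. The difference ran from −0.53 ± 0.487 for Prg2 to 0.48 ± 0.819 for Cpa3 (log2, SE), with a median of 0.17 over the 9 genes and none called, where 0% of all genes were called. RH against WT averaged over both treatments ran from −0.05 for Prg2 to 0.18 for Mcpt8, with a median of 0.06 and none called, where 0.00667% of all genes were called. Metformin against vehicle averaged over both genotypes ran from −0.22 for Epx to 0.39 ± 0.196 for Mcpt8, with a median of 0.16 and none called, where 0% of all genes were called. The 95% intervals set what these data could have missed. For Hdc the averaged metformin effect lay between −0.24 and 0.21 on the log2 scale and for Il1rl1 between −0.28 and 0.20, while for Cpa3 it lay between −0.62 and 1.2 and for Epx between −1.18 and 0.74. A p that misses the threshold does not show that the levels were equal.

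The separate fits of the rounds differed in sign for part of the genes. In each round, 2 of the groups hold 1 library (RH VEH and WT MET in round 1, RH MET and WT VEH in round 2), which is assumed to vary like the others, so these values describe single libraries more than groups. Round 2 includes both libraries of high mitochondrial share. In round 1 alone, the averaged metformin effect was positive for 3 and negative for 6 of the 9 genes (median −0.10), and in round 2 alone it was positive for 7 and negative for 2 (median 0.29). For RH against WT under vehicle, round 1 gave 8 positive and 1 negative (median 0.34) and round 2 gave 1 positive and 8 negative (median −0.29). No gene of the 9 passed the threshold within a round.

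Without WT MET 2 and RH VEH 2 none of the 9 was called either, but values moved and some turned, with 2 libraries left in WT MET and in RH VEH. The difference between the metformin effects then had a median of −0.18, with 1 positive and 8 negative, and Cpa3 stood at −0.18 ± 0.252. Fcer1a had −0.79 ± 0.27 and Epx −0.65 ± 0.279 for this difference, with unadjusted p of 0.0121 and 0.0357 and adjusted p of 0.841 (edgeR). RH MET against WT MET had a median of −0.05, with 3 positive and 6 negative, and Fcer1a stood at −0.45 ± 0.191 (unadjusted p = 0.0348, adjusted p = 0.774, edgeR). RH VEH against WT VEH had a median of 0.19, with 8 positive and 1 negative. Metformin against vehicle had 4 positive and 5 negative values in RH cells, with Epx at −0.59 ± 0.194 (unadjusted p = 0.00981, adjusted p = 0.998, edgeR). In WT cells its median was 0.37, with Fcer1a at 0.63 ± 0.191 and Ms4a2 at 0.40 ± 0.148 (unadjusted p of 0.00608 and 0.0188, adjusted p of 0.909, edgeR). The averaged metformin effects of Cpa3, Ms4a2 and Mcpt8 were 0.29 ± 0.125, 0.30 ± 0.104 and 0.44 ± 0.174, each with an unadjusted p under 0.05 and an adjusted p of 1 (edgeR). With all 12 libraries none of the 9 had an unadjusted p under 0.05 in any of the 7 comparisons. The directions given above for these genes thus rest in part on 2 libraries. In bulk RNA, fewer cells of a type and less RNA per cell cannot be told apart.

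The 9 genes also differed between the rounds. This comparison was added after the values had been seen, it is not one of the study's, and what differs between the rounds is not stated in the labels. In the 10 libraries without WT MET 2 and RH VEH 2, Cpa3 had 107 to 179 CPM in the 4 libraries of round 2, against 55.5 to 87.5 CPM in the 6 of round 1. Epx had 52.7 to 91.3 CPM in round 2, against 19.8 to 35.9 CPM in round 1. Prg2 had 204 to 371 CPM in round 2, against 89.1 to 188 CPM in round 1. The rounds did not overlap for these 3 genes, nor for Ms4a2 (47 to 64.8 CPM in round 2, against 23.7 to 36.8 CPM in round 1) and Fcer1a (45.9 to 81.3 CPM in round 2, against 24.1 to 42.4 CPM in round 1). That made 5 of 9 genes, beside 6.56% of all genes that stood higher in round 2 with no overlap. Both libraries left out belong to round 2; RH VEH 2 and WT MET 2 had 37.3 and 38.4 CPM of Cpa3, below all 10 others.

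All 9 genes had a positive log2 fold change of round 2 against round 1 in these 10 libraries, with a median of 0.81 beside one near 0 over all genes, and 5 of the 9 were called higher, where 6.38% of 15325 genes were called higher and 4.01% lower. Epx rose by 1.28 ± 0.138 (log2, SE; adjusted p = 0.000827, edgeR). Cpa3 rose by 0.98 ± 0.125 (adjusted p = 0.00128) and Ms4a2 by 0.81 ± 0.104 (adjusted p = 0.00128, edgeR). Prg2 rose by 0.86 ± 0.196 (adjusted p = 0.0281) and Fcer1a by 0.82 ± 0.135 (adjusted p = 0.00456, edgeR). Mcpt8 had 0.59 ± 0.173 (adjusted p = 0.0564), Prss34 0.46 ± 0.153 (0.0751), Hdc 0.33 ± 0.111 (0.0750) and Il1rl1 0.23 ± 0.0978 (0.150), which did not pass. With all 12 libraries none of the 9 was called, where 0.0133% of all genes were called higher and 0.0333% lower; the 9 estimates stayed positive with a median of 0.54, and 5 had an unadjusted p under 0.05. Without WT VEH 3 as well, 3 of the 9 were called in the 9 libraries left.

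**Figure D4:**
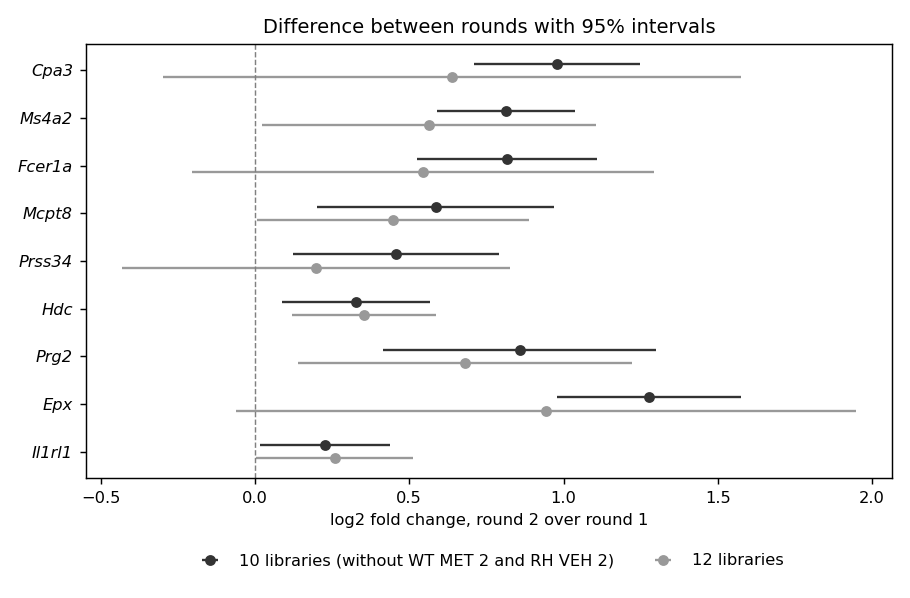
Log2 fold change of round 2 over round 1 (x axis) of each gene with 95% intervals, in 10 libraries (dark) and in all 12 (grey). In 10 libraries all 9 intervals lie above 0, from 0.23 for Il1rl1 to 1.28 for Epx; in 12 libraries the intervals are wider for all genes but Hdc.

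Other granulocyte and monocyte markers moved with the rounds in the same 10 libraries. The summed level of 16 late neutrophil genes was 2733 to 4862 CPM in round 2, against 1401 to 3201 CPM in round 1, and 672 and 698 CPM in RH VEH 2 and WT MET 2; 13 of the 16 were called higher in round 2. Of the 9 primary granule genes tested 8 were called higher, with sums of 3138 to 3767 CPM in round 2, against 1994 to 2885 CPM in round 1. Of the 13 monocyte genes 9 were called higher, with sums of 932 to 1299 CPM in round 2, against 587 to 789.5 CPM in round 1. In RH VEH 2 and WT MET 2, left out here, the primary granule sums were 1158 and 1054 CPM. The monocyte sums there were 297 and 402 CPM. As for the late neutrophil genes, these lay below all libraries of round 1. Of the 13 erythroid genes tested none was called in either direction, and of the 11 megakaryocyte genes 1 was called lower. Called higher were 2 of 13 T and NK cell genes, 2 of 10 B cell genes, 1 of 12 stem cell genes and none of 10 dendritic cell genes. Over all genes, 6.38% were called higher and 4.01% lower. Group 2 innate lymphoid cells also make Il1rl1; 1 of their 8 tested marker genes was called higher, the summed level of the list was 18.3 to 31.8 CPM in round 2, against 10.8 to 18 CPM in round 1, and Il13 and Il5 had at most 13 and 7 counts in a library. The part of these cells in the round difference of the 9 genes was not tested.

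The lists of related genes were read in the same way; some genes stand in more than 1 list. Of the 6 lists of related genes and 10 lists of other cell types, none had a called gene in any of the 7 comparisons between the study's groups. The counts given next are for the round comparison in 10 libraries, followed by the 2 genes of smallest p for the averaged genotype and metformin effects, which are values only. Beside each of these counts stand the shares over all 15325 genes of that comparison, 6.38% called higher and 4.01% lower.

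Of the 16 other eosinophil genes 14 were tested, and 10 were called higher and 1 lower in round 2, with a median log2 fold change of 0.88. The eosinophil-associated ribonuclease genes Ear1, Ear2 and Ear6 rose by 2.73 ± 0.297, 2.54 ± 0.203 and 2.36 ± 0.264. They are near-identical copies between which reads may be split, so single values are uncertain. Their levels were low, at 0.195 to 9.35, 1.19 to 15.15 and 0.683 to 14.3 CPM over 12 libraries. In RH VEH 2 and WT MET 2, left out here, Ear1 had 1.55 and 0.507 CPM and Ear2 had 1.19 and 2.33 CPM. Ear6 had 2.27 and 1.22 CPM there. All these values lay below the libraries of round 2 that were kept. Ccr3 rose by 2.91 ± 0.442 and Prg3 by 1.5 ± 0.205. Cebpe, a C/EBP factor of granule formation, rose by 0.90 ± 0.176, Fut7, which makes selectin ligands, by 0.86 ± 0.153, and the receptor gene P2ry14 by 0.67 ± 0.151. Gata1 fell by 0.47 ± 0.109, with 193 to 246 CPM in the libraries of round 2 that were kept. It had 341 and 292 CPM in RH VEH 2 and WT MET 2. The averaged RH against WT effects of smallest p were −0.25 ± 0.127 for S100a10 and 0.82 ± 0.551 for Ear1, and the averaged metformin effects were −1.0 ± 0.637 for Ccr3 and 0.20 ± 0.191 for Fut7.

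Of the 33 other mast cell and basophil genes 21 were tested, and 1 was called higher and 1 lower in round 2. These counts lie near the shares over all genes, 6.38% called higher and 4.01% lower. Estimates were positive for 14 and negative for 7, with a median of 0.17. Ccr2, a chemokine receptor gene also made by monocytes, rose by 0.68 ± 0.0999, and Gzmb, which encodes granzyme B, fell by 0.78 ± 0.207. Cd200r3 and Gata2, named for their roles after their values had been seen, had 0.48 ± 0.165 and 0.24 ± 0.122 and were not called. The averaged RH against WT effects of smallest p were −0.52 ± 0.215 for Gzmb and −0.24 ± 0.133 for the integrin gene Itgb7. The averaged metformin effects were 0.63 ± 0.184 for Il6 and 1.15 ± 0.458 for Cd200r4, with adjusted p of 1 (edgeR). Cd200r4 ran low, from 0 CPM in RH VEH 2 to 3.85 CPM in WT MET 2, the libraries of high mitochondrial share.

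All 22 genes listed for the signalling chain below the IgE receptor were tested. In round 2, 6 were called higher and none lower, with a median of 0.27. Neutrophil and monocyte genes also rose in this comparison, and which cells the 6 calls came from was not tested. The phospholipase gene Plcg2 rose by 0.66 ± 0.136, the kinase gene Syk by 0.55 ± 0.123, the adaptor gene Lat2 by 0.56 ± 0.143 and the kinase genes Lyn and Prkcb by 0.43 ± 0.112 and 0.74 ± 0.214. Fcer1g, which encodes the gamma chain that the IgE receptor shares with other Fc receptors, stood at 32.1 to 69.8 CPM. The averaged RH against WT effects of smallest p were −0.22 ± 0.109 for Grap2 and −0.27 ± 0.143 for Plcg1, and the averaged metformin effects were 0.21 ± 0.164 for Fcer1g and 0.13 ± 0.122 for Lyn.

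Of the 22 genes of cytokines and their receptors 18 were tested, and 5 were called higher and none lower in round 2, with a median of 0.16. Csf2rb, the beta chain that the receptors for IL-3, IL-5 and GM-CSF share, rose by 0.49 ± 0.106, Il4ra by 0.80 ± 0.127, and the IL-18 receptor genes Il18r1 and Il18rap by 0.66 ± 0.187 and 0.48 ± 0.113. Kitl, the ligand of Kit, rose by 2.07 ± 0.433 at a level of 0.119 to 2.04 CPM. The averaged RH against WT effects of smallest p were 0.18 ± 0.116 for Il18rap and −0.14 ± 0.113 for Crlf2, and the averaged metformin effects were 0.21 ± 0.116 for Il18rap and 0.16 ± 0.146 for Csf2ra.

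All 24 transcription factor genes of the lineages were tested, and 5 were called higher and 4 lower in round 2, with a median of 0.18. Cebpa rose by 0.95 ± 0.134, Gfi1 by 0.65 ± 0.159 and Lmo4 by 0.55 ± 0.113. Hes1 fell by 1.91 ± 0.287, Gfi1b by 0.56 ± 0.0875 and Zfpm1, the partner of GATA factors, by 0.42 ± 0.106. The round 2 libraries left out, RH VEH 2 and WT MET 2, did not share these levels. Hes1 had 6.21 and 26.2 CPM there, against 0.966 to 1.64 CPM in the libraries of round 2 that were kept. Gfi1b had 230 and 211 CPM, against 116 to 138 CPM in those kept. Cebpa had 35 and 39.1 CPM, against 75.3 to 94.1 CPM in those kept. The averaged RH against WT effects of smallest p were −0.95 ± 0.211 for Bhlhe40, with an adjusted p of 0.677 (edgeR), and −0.17 ± 0.0936 for Zfpm1. The averaged metformin effects were 1.02 ± 0.245 for Id1 and 0.19 ± 0.0911 for Xbp1, with adjusted p of 1 (edgeR).

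Of the 19 genes of mediator synthesis and granule storage 18 were tested, and 4 were called higher and 1 lower in round 2, with a median of 0.26. The protease genes Ctsg and Dpp4 rose by 0.62 ± 0.138 and 0.53 ± 0.109, and Alox5, the enzyme gene of leukotriene synthesis, by 0.46 ± 0.108. Hpgds, the enzyme gene of prostaglandin D synthesis, rose by 1.67 ± 0.478 at a level of 0.205 to 3.24 CPM. Gzmb, given above, was the 1 called lower. The averaged RH against WT effect of Ltc4s was −0.75 ± 0.531, and the averaged metformin effects were 0.27 ± 0.218 for Gzmb and 0.15 ± 0.141 for Pla2g4a.

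The 9 genes varied together in part across libraries. Over 36 pairs, Pearson's r of log2 CPM over 12 libraries had a median of 0.59 and ran from −0.28 to 0.94, with 33 positive, and over the 10 libraries its median was 0.67 and all 36 were positive. Cpa3 and Ms4a2 had the highest r, 0.94 over 12 and 0.96 over 10 libraries. Prg2 and Epx had 0.78 and 0.93, and Mcpt8 and Prss34 had 0.76 and 0.92. Over 12 libraries, r with the other genes was 0.09 to 0.51 for Hdc and −0.28 to 0.50 for Il1rl1. Over 10 libraries it was 0.27 to 0.66 for Hdc and 0.21 to 0.68 for Il1rl1, so the lower values rest in part on WT MET 2 and RH VEH 2. These are descriptions: the points share their library, its depth and scaling and its round.

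**Figure D5:**
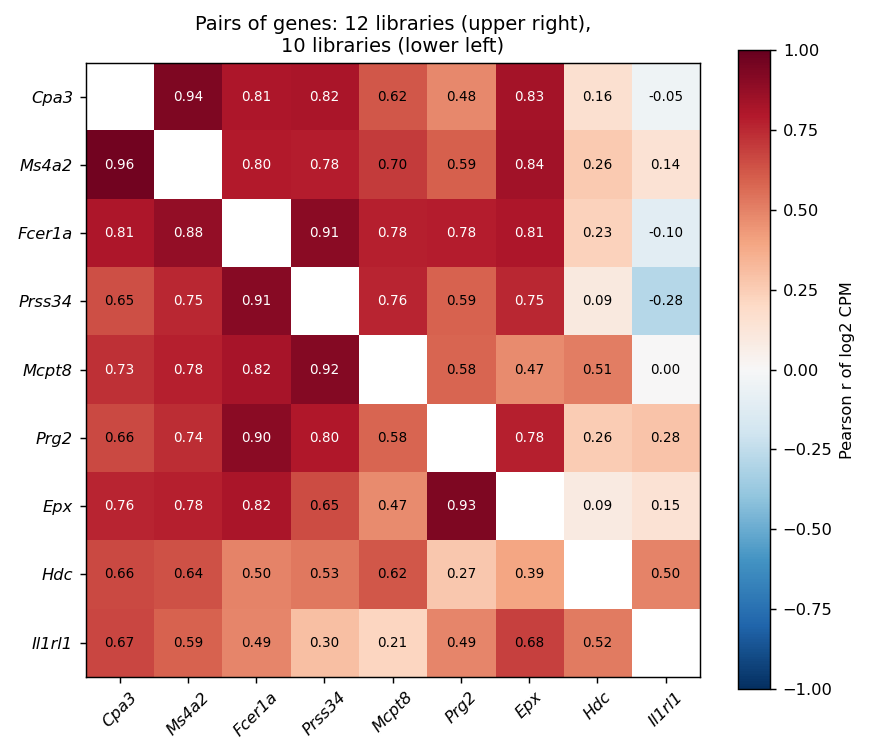
Pearson's r of log2 CPM for each pair of the 9 genes over 12 libraries (upper right) and over 10 libraries without WT MET 2 and RH VEH 2 (lower left). The block of Cpa3, Ms4a2, Fcer1a, Prss34, Mcpt8, Prg2 and Epx has r of 0.47 to 0.94 over 12 libraries, above most pairs with Hdc or Il1rl1.

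Count ratios within a library show where the genes came apart. Prss34 had 1.52 and 1.55 times the counts of Mcpt8 in RH VEH 2 and WT MET 2, and 1.79 to 2.85 times in the other 10. Prg2 had 11.2 and 7.31 times the counts of Epx in the same 2 libraries, and 2.82 to 5.25 times in the others. Thus Prss34 and Epx were low beside Mcpt8 and Prg2 in the 2 libraries of high mitochondrial share. In the other 10 libraries, Prg2 had 2.82 to 4.76 times the counts of Epx in round 2, against 4.10 to 5.25 times in round 1.

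The fitted spread between libraries, as a biological coefficient of variation, came from the model of group and round over 12 libraries. It was 0.499 for Epx, 0.471 for Cpa3 and 0.39 for Fcer1a, above that of 90.1%, 88% and 79.9% of genes. It was 0.152 for Il1rl1 and 0.146 for Hdc, where the median over genes was 0.223. Without WT MET 2 and RH VEH 2, the SE of the averaged genotype effect fell from 0.400 to 0.125 for Cpa3. It fell from 0.423 to 0.137 for Epx and from 0.326 to 0.135 for Fcer1a. For Il1rl1 it went from 0.1105 to 0.0971 and for Hdc from 0.103 to 0.111. The wide spread of Cpa3, Epx and Fcer1a thus rests in part on these 2 libraries.

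The genes whose log2 CPM was most like the mean of the 9 standardised genes over 12 libraries were Msra, Xpc, Cebpa, Tcp11l2, Plod2, C1galt1c1, Npl and Glrx, with r of 0.94 to 0.91. They came from 10462 genes, whose median r was −0.05. Cebpa is a transcription factor gene of granulocyte progenitors, Msra encodes a methionine sulphoxide reductase, Xpc a DNA damage sensor and Glrx a glutaredoxin. Over the 10 libraries, which are part of the 12 used to pick them, these 8 had r of 0.92 to 0.95. Their rank correlations over 12 libraries were lower, from 0.73 for Xpc to 0.91 for Msra. The mean of the standardised genes was 0.62 to 1.28 in RH MET 3, RH VEH 3, WT MET 3 and WT VEH 3. It was at most 0.05 in the other libraries, so these r include the round difference.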

How the data were processed

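The authors deposited raw whole-number counts of reads per gene for 54532 gene IDs in 12 libraries, with gene length in bases as other information per the file headers. STAR 2.5, HTSeq 0.6.1 and mm10 are named, with no settings, per the submitters' processing notes. Whether counting used strand, and how reads shared by near-identical copies were treated, is not stated in the sources. Sequencing was of paired reads from libraries of RNA extracted with a column kit, per the labels' protocols.

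Counts were scaled by TMM and tested with edgeR 4.0.16 (quasi-likelihood, robust; R 4.3.3) after filterByExpr, which kept 15003 genes. The model had a mean per group and a round term over 12 libraries, and 7 comparisons were read. Calls were made at an adjusted p under 0.05 (Benjamini-Hochberg, over all genes tested). Standard errors and 95% intervals come from that fit, and log2 CPM used a prior count of 2. The method was tried on simulated counts. These gave all genes a single spread and held no difference between rounds. They do not cover the wider spread of Epx, Cpa3 and Fcer1a. A level of 1 CPM corresponds to between 8.37 reads (RH VEH 2) and 24.8 reads (RH MET 3), which limits the precision for low genes.

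The smaller deposited table held 2 columns that match no sample, which were not used. The numbers of 7 columns of the larger table do not by themselves fix the sample, and for these only the group was used. Coordinates are those of the deposited table, and 8 of the 9 genes have the same ones in GENCODE M21, all but Prss34. The 9 genes and the lists were chosen with earlier results of these data known. Named from each list were called genes, up to 8 in a comparison, and otherwise the 2 of smallest p for the averaged effects; for the 10 lists of other cell types counts alone are given. A called gene of 1 list is not reported here. List genes named for a level only were named after their values had been seen. Alternatives were DESeq2 1.42.0, other scaling and filters, models without the round term, each round alone, and leaving out libraries.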

Additional observations from a re-analysis of the deposited data

How the results depend on the processing

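None of the 9 genes passed the threshold in any of the 7 comparisons under the alternatives tried: of 1359 values none passed, the lowest adjusted p was 0.155 (edgeR), and 183 had the other sign than the value reported. The count over all genes moved more. For RH against WT under vehicle (0 called) it was 3 with DESeq2, 175 with no filter on low counts, 2 in round 1 alone and 3 without WT MET 2 and RH VEH 2. For RH against WT under metformin (1 called) it was 22 with DESeq2, 362 with no filter, and 0 with no round term, in either round alone or with only the libraries compared. For metformin against vehicle in RH (0 called) it was 229 with no filter, 3 in round 1 alone and 1 without both libraries. For metformin against vehicle in WT (0 called) it was 1 with DESeq2 and 218 with no filter. For the difference between the metformin effects (0 called) it was 431 with no filter, 3 in round 1 alone and 1 without both libraries. For the averaged genotype effect (1 called) it was 20 with DESeq2, 119 with no filter, 2 and 0 in rounds 1 and 2 alone and 3 without both libraries, and for the averaged metformin effect (0 called) 63 with no filter and 2 in round 1 alone. The cause was not tested. Leaving out 1 library at a time gave 0 to 2 calls for the genotype comparisons within vehicle and within metformin, 1 to 2 for the averaged genotype effect, 0 to 1 for metformin in RH and for the difference, and 0 for the others. In round comparisons of the 9 genes, chosen after seeing the data, 5 were called higher in 10 libraries, 0 in all 12, 7 with DESeq2 and 3 to 7 without 1 further library. The median r of 36 pairs was 0.59, with 0.67 without both libraries and 0.47 to 0.64 without 1 library. Direction of single genes rested on single libraries in places: without WT MET 3, metformin against vehicle in WT was −0.26 for Fcer1a, −0.35 for Prss34 and −0.19 for Prg2. At 3 libraries a group, intervals for metformin against vehicle in RH reached past 1 in size on the log2 scale for most of the genes. These were Cpa3, Ms4a2, Fcer1a, Mcpt8, Prss34, Prg2 and Epx, while the intervals of Hdc and Il1rl1 stayed within it.

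Libraries were not treated as paired by column number, since nothing says that a number marks a shared animal or day and the pairs did not all deviate together: of 18 pairs with the same number in different groups, 14 had a correlation of their deviations above 0.1, with r from −0.01 to 0.49. The pairs of number 3, all of round 2, had r of 0.27 to 0.49, and the other pairs −0.01 to 0.37. Round was not removed from these deviations, so pairing and round cannot be told apart here. A fit with a replicate block in place of the round gave 2 calls for RH against WT under vehicle, 1 for RH against WT under metformin and for the averaged genotype effect, and 0 in the other 4 comparisons, with none of the 9 genes called.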
